A study of Mus musculus with 16 samples.

Results

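The genes for the T cell receptor's CD3 chains, its coreceptors and the checkpoint and regulatory molecules of T cells were followed in total RNA of whole mouse lung, on 16 Agilent arrays of a single colour, 1 for each sample. The 10 genes, Cd3d, Cd3e, Cd3g, Cd4, Cd8a, Cd8b1, Icos, Ctla4, Foxp3 and Pdcd1, were taken by their gene symbol on the array, out of 25573 genes tested. All 10 were measured, by 13 probes in all. The samples came from female mice in 5 groups. There were 4 ARF-DTR samples aged 12 months and given diphtheria toxin (DT), 4 ARF-DTR samples aged 12 months and given saline (PBS), and 4 ARF-DTR samples aged 2 months and not injected. Of the wild type (WT) mice aged 12 months, 2 were given DT and 2 were given PBS. The ARF-DTR transgene places the diphtheria toxin receptor behind the promoter of Arf, a gene that senescent cells use, which exposes to the toxin any cell with an active Arf promoter, of whatever type. Doses of 50 microgram DT per kg went into the peritoneum every 2 weeks over 1 month.

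The T cell receptor recognises peptides held by MHC molecules and has no signalling domain of its own. The CD3 gamma, delta and epsilon chains, with the zeta chain, carry the signal into the cell, and CD4 or CD8 binds the MHC molecule and brings the kinase Lck to the receptor. ICOS adds a costimulatory signal, CTLA-4 and PD-1 restrain the response, and Foxp3 is the transcription factor that defines regulatory T cells. In the lung, T cells patrol the tissue, stay as resident memory cells after infection and gather in lymphoid aggregates around airways and vessels.

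Promoter windows are shown for Pdcd1 and Ctla4, whose changes between 12 and 2 months had the largest fitted size of the 10 genes, and for the neighbouring genes Cd3d and Cd3g, whose levels moved together from array to array. Each window is the 250 bases before the RefSeq start on the strand of the gene, on build GRCm38.p6, and capitals mark GGAAA or its complement TTTCC, the core bound by NFAT, a transcription factor that the T cell receptor activates. Pdcd1 has its window at chr1:94052554-94052803 on the minus strand, Ctla4 at chr1:60908775-60909024 on the plus strand, Cd3d at chr9:44981536-44981785 on the plus strand and Cd3g at chr9:44980432-44980681 on the minus strand.
Pdcd1: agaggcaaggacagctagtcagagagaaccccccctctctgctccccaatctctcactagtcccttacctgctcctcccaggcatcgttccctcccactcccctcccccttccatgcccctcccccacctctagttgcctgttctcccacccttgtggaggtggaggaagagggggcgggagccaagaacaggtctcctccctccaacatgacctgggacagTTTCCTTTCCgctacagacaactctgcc
Ctla4: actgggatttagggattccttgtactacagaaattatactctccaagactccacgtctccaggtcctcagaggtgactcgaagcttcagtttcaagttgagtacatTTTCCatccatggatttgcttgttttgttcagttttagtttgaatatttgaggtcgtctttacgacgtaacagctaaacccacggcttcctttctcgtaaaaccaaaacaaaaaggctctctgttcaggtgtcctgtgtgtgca
Cd3d: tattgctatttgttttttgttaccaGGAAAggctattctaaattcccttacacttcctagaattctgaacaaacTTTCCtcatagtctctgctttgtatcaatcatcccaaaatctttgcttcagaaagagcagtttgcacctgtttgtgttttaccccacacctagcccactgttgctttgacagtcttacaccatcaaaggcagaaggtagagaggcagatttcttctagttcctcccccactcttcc
Cd3g: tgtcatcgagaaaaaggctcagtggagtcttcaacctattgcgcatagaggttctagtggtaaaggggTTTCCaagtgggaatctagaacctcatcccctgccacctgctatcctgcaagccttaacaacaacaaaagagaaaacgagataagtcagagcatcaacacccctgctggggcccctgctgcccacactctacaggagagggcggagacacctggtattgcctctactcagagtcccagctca
The core was found in 55.6% of the 32851 promoter windows of the table, so its presence here is a description only. The Pdcd1 window holds 2 adjoining copies, the nearer beginning 23 bases before the start, Cd3d holds 2 copies, and Ctla4 and Cd3g hold 1 each. Cd3d and Cd3g are read in opposite directions from starts 1355 bases apart. On both strands, and with overlaps between motifs left in, these windows were also searched for the E box (CANNTG, in 66.2% of all windows), the RUNX motif (TGTGGT, 14%), a TATA box (TATAAA, 12.4%), the GATA motif (AGATAA, 9.99%), an ETS motif (CCGGAAG, 6.91%) and the AP-1 motif (TGANTCA, 6.75%). Of these, Cd3g held 3 E boxes and 1 GATA motif, Cd3d and Ctla4 held 1 E box each, and Pdcd1 held 0. RefSeq windows were matched for 7 of the 10 genes.

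Probes of 60 bases read the transcripts at single places, and Cd4 and Cd8a were each read at a pair of places that gave different values. These probe sequences are shown because those results turn on them, with coordinates on build mm9. The brighter Cd4 probe lies at chr6:124814711-124814770 on the minus strand, and its last 30 bases hold 2 copies of the polyadenylation signal AATAAA, in capitals. The dimmer Cd4 probe lies upstream of it in the direction of transcription, at chr6:124817706-124817765. The dimmer Cd8a probe lies at chr6:71323885-71323944 on the plus strand, upstream of the brighter one at chr6:71328911-71328970. The Cd3d probe covers chr9:44794171-44794402, so that its 60 bases span 232 bases of genome and cross an intron.
Cd4 brighter probe, last 30 bases: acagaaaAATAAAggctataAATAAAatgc
Cd4 dimmer probe: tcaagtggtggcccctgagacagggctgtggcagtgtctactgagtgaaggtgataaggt
Cd8a dimmer probe: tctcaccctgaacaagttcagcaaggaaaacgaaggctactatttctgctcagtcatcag
Cd3d probe: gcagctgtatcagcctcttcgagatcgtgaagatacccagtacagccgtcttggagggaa
No probe's level is set against another's here, since brightness depends on the probe. The brighter probe stands for the gene, and the other is named where it is used.

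Levels are the log2 of the background-subtracted signal minus the array's 75th percentile, so that 0 is the brightness below which 75% of an array's probes lie. That percentile was 873.2 to 1088 intensity units on slide 1 and 612.8 to 724.6 on slide 2, and 55.6% to 66.9% of probes on an array were well above background. The 12-month PBS and the 2-month ARF-DTR arrays were on slide 1. The other 8, from DT-treated ARF-DTR and from all WT lungs, were on slide 2. Comparisons of 12-month PBS with 2-month ARF-DTR lungs, and of WT DT with WT PBS lungs, therefore lay within a slide. In ARF-DTR mice DT and PBS arrays lay on different slides, where DT and slide cannot be told apart. The 12-month ARF-DTR lungs were injected and the 2-month lungs were not, so age and injection cannot be told apart. On slide 1 age and array row ran together, and on slide 2 genotype and row did. In WT lungs treatment and array column ran together, with PBS in columns 1 and 2 and DT in columns 3 and 4. All 13 lung epithelial and endothelial markers were measured, with mean log2 levels of 5.42 to 5.74 over the arrays. Of the 10 genes, 9 were well above background on all 16 arrays, and Ctla4 on 7. In whole lung, more T cells and more RNA of a gene per T cell cannot be told apart.

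At 12 months, PBS-treated ARF-DTR lungs had higher Pdcd1, Ctla4 and Icos than 2-month ARF-DTR lungs, while the CD3 chains, both coreceptors and Foxp3 did not pass the test. Thus 3 of the 10 genes were higher and 0 lower, where 2.73% of all genes tested were higher and 3.41% lower (limma, threshold 0.05 for p-values adjusted by Benjamini-Hochberg across all genes). With arrays scaled to their median in place of the 75th percentile, 527 genes were higher and 1453 lower, against 698 and 872, and 3 of the 10 genes passed there too. The median log2 change was 0.29 over the 10 genes and -0.03 over all genes.

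Pdcd1 encodes PD-1, the inhibitory receptor of activated T cells. Its log2 level was -1.41, -3.73, -2.35 and -1.56 in the 12-month PBS lungs, against -4.18, -4.32, -4.07 and -3.77 in the 2-month lungs. The groups did not overlap, as in 5.01% of all genes in this direction, but PBS replicate 2 lay just above the 2-month lungs. The change was 1.82 ± 0.43 on the log2 scale (± SE of the fit throughout, n = 4 each), or 3.54-fold (limma adjusted p = 0.0254). Ctla4, the inhibitory receptor that competes with CD28 for its ligands, had -4.83, -6.50, -5.06 and -4.48 in the 12-month PBS lungs, against -6.28, -6.74, -7.79 and -7.75 in the 2-month lungs. It was well above background in 2 of the 4 PBS lungs and 0 of the 4 2-month lungs, so the young level is only a bound. PBS replicate 2 fell among the 2-month lungs. Ctla4 was 1.5-fold higher at 12 months with the 2-month arrays raised to the lowest signal that counted as well above background. The PBS arrays were left as they were. Since not all PBS lungs were well above background, this fold is not a firm minimum. The fold itself was not tested. The fit to the unraised values, dim arrays included, gave a limma adjusted p of 0.0198. Icos, the inducible costimulator, had 0.34, -0.34, -0.09 and 0.24 in the 12-month PBS lungs, against -0.76, -0.59, -0.94 and -0.89 in the 2-month lungs. All 4 older lungs lay above all 4 young ones, and the change was 0.83 ± 0.19, or 1.78-fold (limma adjusted p = 0.0228). The other Icos probe, at chr1:61055103-61055162 (mm9), changed by 0.84 ± 0.16 (limma adjusted p = 0.00862).

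These 3 calls lay near the threshold. Without single arrays the limma adjusted p of Pdcd1 was above 0.05 in 5 cases (0.0652 without 2-month replicate 1, 0.0722 without 2-month replicate 2, 0.0746, 0.0561 and 0.08 without PBS replicates 1, 3 and 4). For Ctla4 it was 0.0613 without 2-month replicate 4 and 0.0588, 0.0535 and 0.0639 without PBS replicates 1, 3 and 4. For Icos it was 0.0532 and 0.0616 without 2-month replicates 1 and 4, and 0.0693 and 0.0695 without PBS replicates 1 and 4. Over these fits the log2 change lay between 1.54 and 2.31 for Pdcd1 and between 0.73 and 0.96 for Icos, and Ctla4 has no exact change to compare, since its young level is a bound. After normexp background correction and quantile normalization the fitted change of Ctla4 was 0.23 (limma adjusted p = 0.198) and that of Pdcd1 0.99 (0.0513). In a fit to the 8 arrays of slide 1 alone, limma's adjusted p was 0.0814 for Ctla4 and 0.0782 for Pdcd1.

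**Figure D1:**
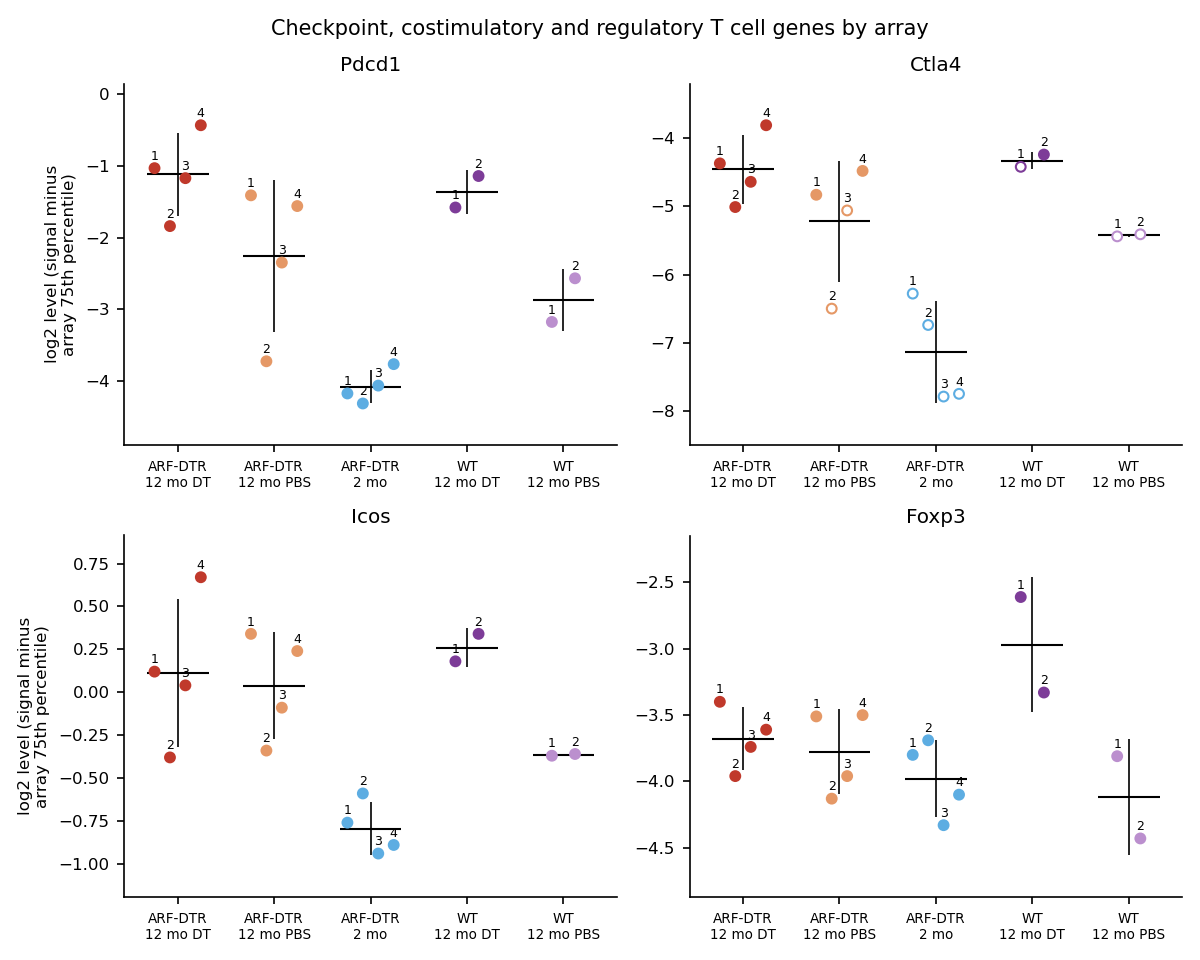
Log2 level of Pdcd1, Ctla4, Icos and Foxp3 on each array (vertical axis, log2 signal minus the array's 75th percentile) in the 5 groups (horizontal axis), with replicate numbers. Lines are group means with SD, and open points are arrays where the probe was not well above background; the 4 2-month lungs are the lowest group for Pdcd1, Ctla4 and Icos.

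The CD3 chains had slightly higher averages at 12 months than at 2 months, and these differences did not pass the test. Cd3g had 0.84, 0.09, 0.53 and 0.83 in the 12-month PBS lungs, against 0.28, 0.35, 0.03 and 0.01 in the 2-month lungs. Only PBS replicate 2 fell within the young range, and the change was 0.41 ± 0.18 (limma adjusted p = 0.216). Cd3d averaged 1.23 ± 0.24 in 12-month PBS lungs and 1.05 ± 0.18 in 2-month lungs (SD, n = 4 each; limma adjusted p = 0.566). Cd3e averaged 1.53 ± 0.17 in 12-month PBS lungs and 1.30 ± 0.18 in 2-month lungs (SD, n = 4 each; limma adjusted p = 0.283). These groups overlapped for both chains.

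Both CD8 chains, which form the coreceptor of cytotoxic T cells, had slightly negative values. Cd8a changed by -0.16 ± 0.19 (95% interval -0.57 to 0.25) and Cd8b1 by -0.17 ± 0.19 (-0.58 to 0.25), so a log2 rise above 0.25 lies outside both intervals. Cd4, the coreceptor of helper and regulatory T cells, changed by 0.34 ± 0.13 (limma adjusted p = 0.155). Its dimmer probe, whose signal was faint, changed by -0.04 ± 0.09 (limma adjusted p = 0.834). Foxp3 changed by 0.20 ± 0.22 (limma adjusted p = 0.655), with 12-month PBS lungs at -3.51, -4.13, -3.96 and -3.50 and 2-month lungs at -3.80, -3.69, -4.33 and -4.10.

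Markers of some other cell types also differed between these ages, where 2.73% of all genes tested were higher and 3.41% lower. Of 7 dendritic cell markers and of 6 macrophage and monocyte markers 0 passed in either direction. Of 13 lung epithelial and endothelial markers 2 were lower and 0 higher. Of 6 measured genes of lymph node stroma and high endothelium 1 was higher, Cxcl13, the B cell chemokine of lymphoid follicles (1.29 in 12-month PBS and -1.02 in 2-month lungs on average, limma adjusted p = 0.00354). The largest fitted changes of the 6 were those of Glycam1 (4.36 ± 1.25, limma adjusted p = 0.059) and Cxcl13 (2.31 ± 0.38). The others lay between -0.04 (Fut7) and 0.80 (Chst4). Glycam1 was well above background on 10 of the 16 arrays and averaged -8.12 in the 2-month lungs, which is dim signal. The mean log2 level of these 6 genes, Glycam1 included, was -0.40, -1.93, -0.76 and -0.61 in the PBS lungs, against -2.38 to -2.19 in the 2-month lungs. PBS replicate 2 was again closest to the young lungs, and it was the lowest of the 4 PBS arrays in 7 of the 10 genes. Without it Pdcd1 changed by 2.31 (limma adjusted p = 0.00102) and Icos by 0.96 (0.0121). Of 10 B cell markers 3 were higher and 0 lower, with mean levels of 0.06 to 0.73 in PBS lungs and -0.19 to 0.02 in 2-month lungs. Of 8 natural killer markers 4 were lower and 0 higher, with mean levels of -1.97 to -1.15 in PBS lungs and -1.12 to -0.58 in 2-month lungs. Among 7 innate lymphoid and gamma delta markers 3 were higher and 0 lower. They were Il23r (1.48 ± 0.18, limma adjusted p = 0.000513), Il17rb (0.74 ± 0.19, 0.0392) and Blk, which is also a listed B cell marker (0.67 ± 0.17, 0.0364). Of 9 thymocyte markers 4, Rag1, Rag2, Ptcra and Arpp21, were well above background on fewer than 4 arrays, and over the 5 measured the mean level was -0.50 to -0.14 in PBS lungs and -0.39 to -0.24 in 2-month lungs. The part of these cells in the levels of Pdcd1, Ctla4 and Icos was not tested.

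**Figure D2:**
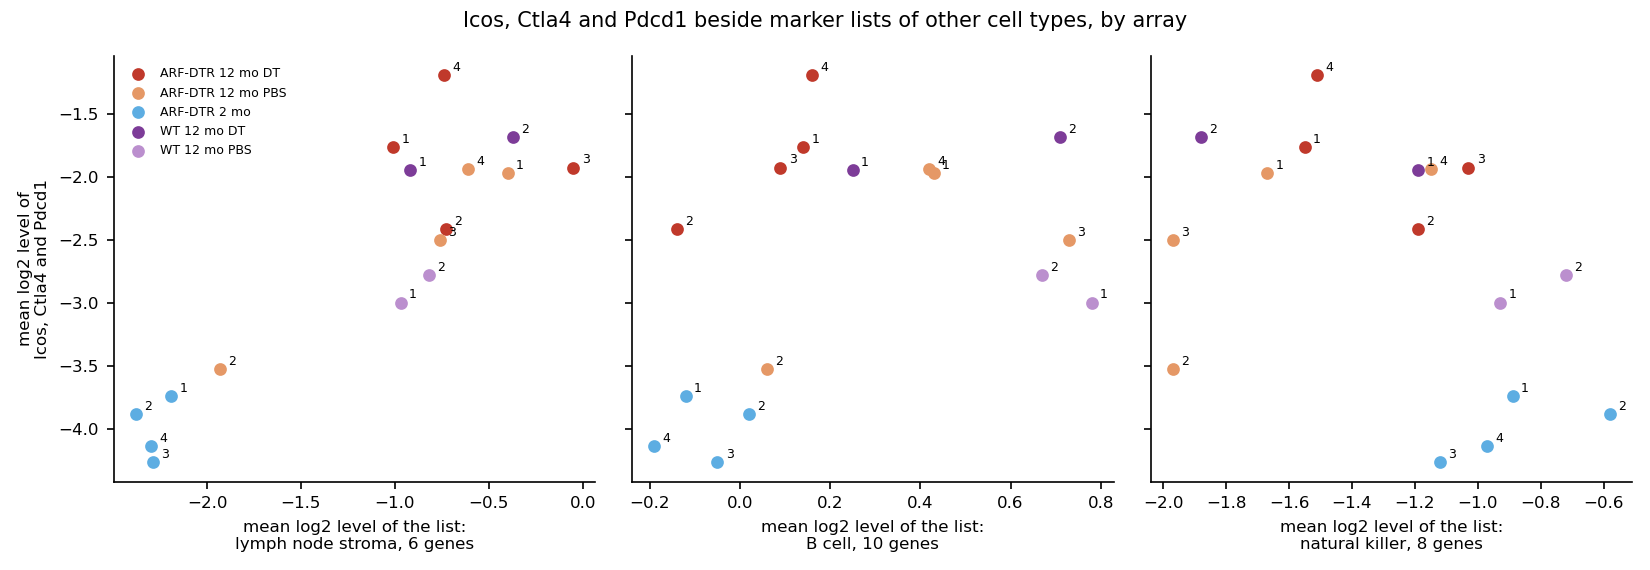
Mean log2 level of Icos, Ctla4 and Pdcd1 on each array (vertical axis) against the mean log2 level of marker lists for lymph node stroma, B cells and natural killer cells (horizontal axes, log2 signal minus the array's 75th percentile). Points are arrays, numbered by replicate and coloured by group. The 2-month lungs and 12-month PBS replicate 2 lie lowest on the vertical axis, and in the lymph node panel also furthest left. The mean of that panel includes Glycam1, which was dim in the 2-month lungs.

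The comparison of DT with PBS at 12 months in ARF-DTR lungs asks what follows when cells with an active Arf promoter are exposed to the toxin. Of the 10 genes 0 were higher and 1, Cd4, was lower in DT-treated lungs, where 15.9% of all genes tested were higher and 13.5% lower. Scaling to the array median shifted the median change of all genes by 0.18 and gave 8673 genes higher and 1751 lower, against 4056 and 3445. Cd4 had 2.19, 2.07, 1.94 and 2.15 in the DT-treated lungs, against 3.20, 2.78, 2.71 and 2.87 in the PBS lungs. The groups did not overlap, as in 14.7% of all genes in this direction, and Cd4 changed by -0.80 ± 0.13, or 0.574-fold (limma adjusted p = 0.00107; -0.62 with median scaling). The dimmer Cd4 probe changed by -0.15 ± 0.09 (limma adjusted p = 0.224), with overlapping groups at -4.68, -4.85, -4.70 and -4.67 in DT-treated lungs and -4.36, -4.62, -4.69 and -4.63 in PBS lungs. That dimmer probe was faint, with a signal of 19.8 to 48.4 intensity units, and was well above background on 14 of the 16 arrays. Its small change therefore does not settle that of the brighter probe. With both Cd4 probes averaged the change was -0.48 (limma adjusted p = 0.00361).

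The levels of Cd4 split by slide. The WT DT lungs had 1.82 and 2.07 and the WT PBS lungs 1.99 and 1.74, close to the DT-treated ARF-DTR lungs on the same slide. The 2-month lungs, on slide 1 with the PBS lungs, had 2.24, 2.78, 2.64 and 2.56. PBS-treated ARF-DTR lungs differed from WT PBS lungs, across slides, by 1.03 ± 0.16 (limma adjusted p = 0.00122). Within slide 2, DT-treated ARF-DTR lungs differed by 0.22 ± 0.16 from WT PBS lungs (95% interval -0.12 to 0.57, limma adjusted p = 0.44) and by 0.15 ± 0.16 from WT DT lungs (-0.20 to 0.49, 0.725). For Cd4, DT and slide cannot be told apart.

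**Figure D3:**
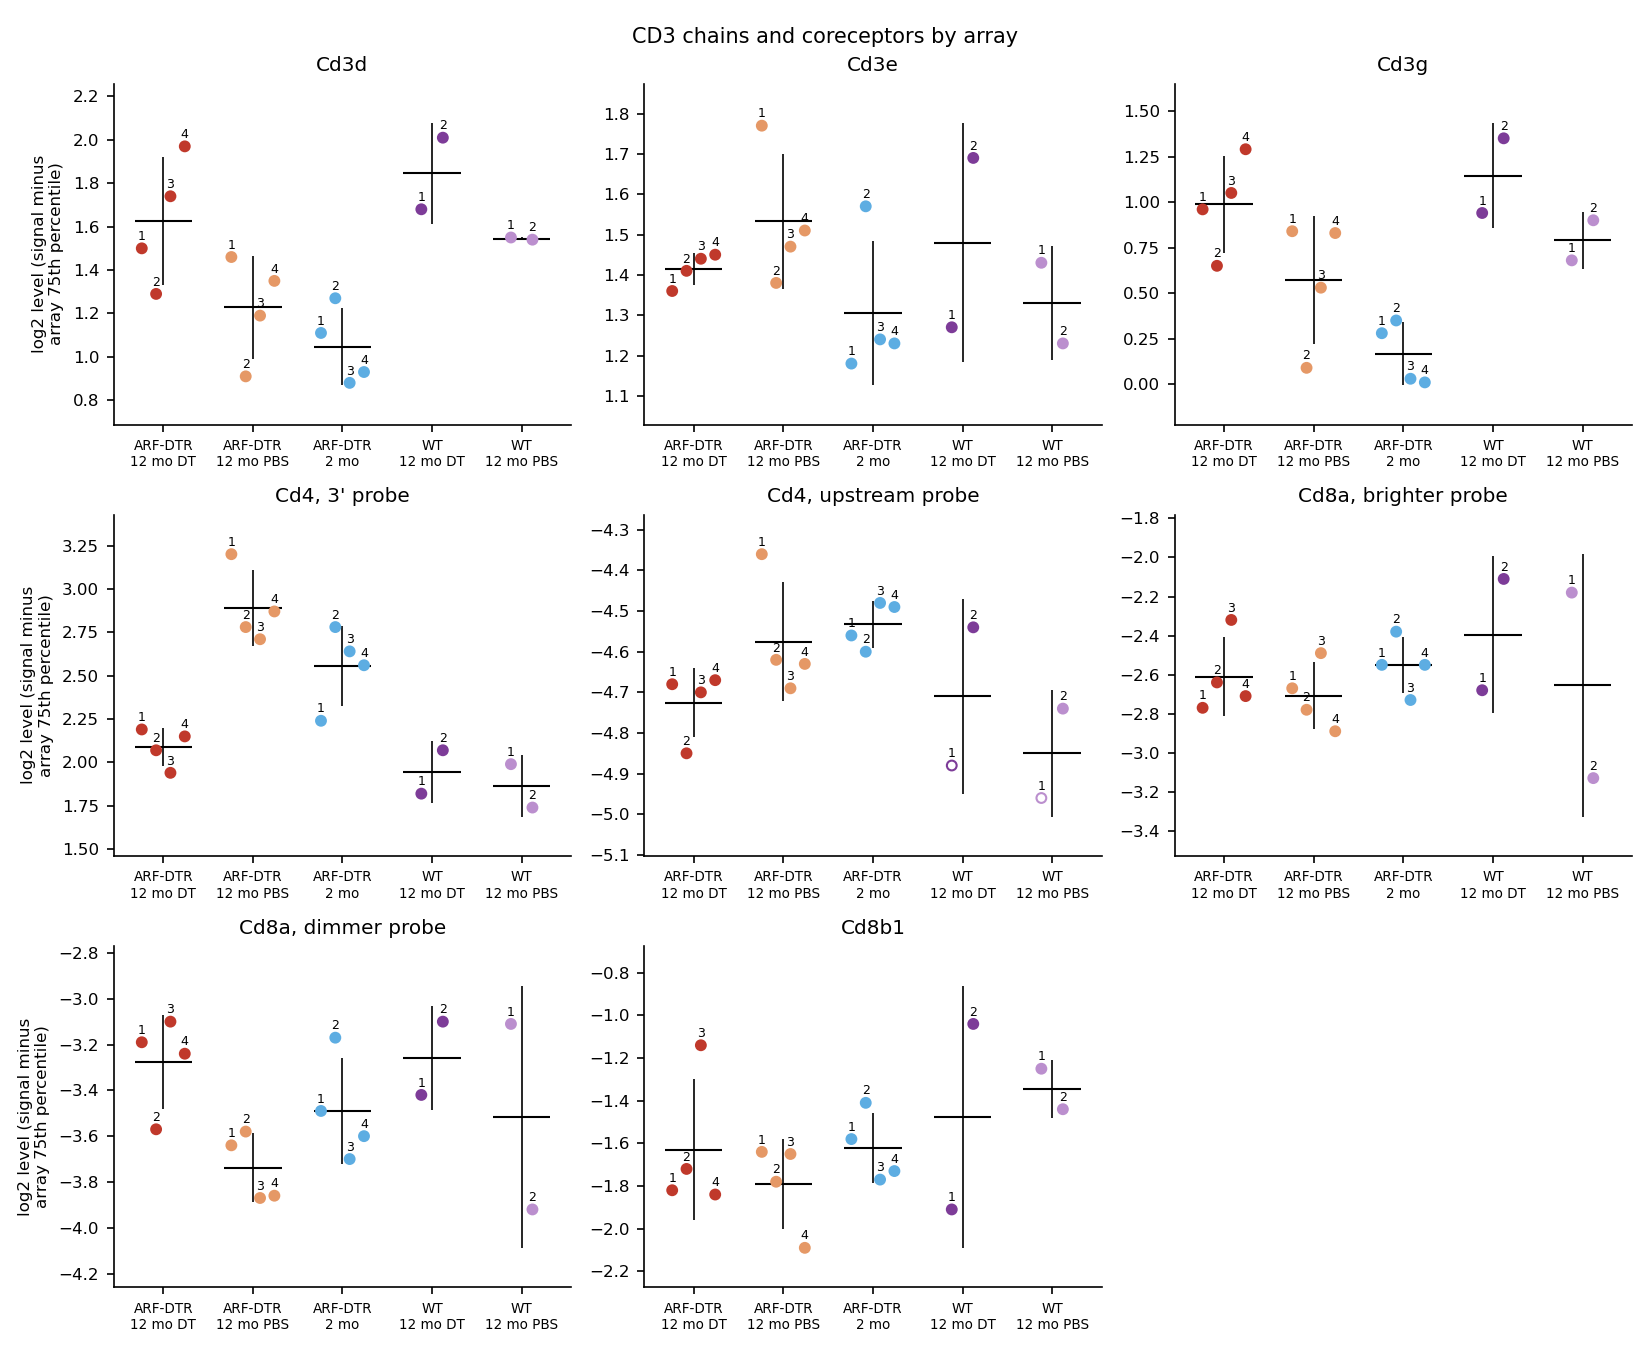
Log2 level of the CD3 chains, Cd4, Cd8a and Cd8b1 on each array (vertical axes, log2 signal minus the array's 75th percentile, a scale of its own per panel) in the 5 groups, with replicate numbers, means and SD. Open points are arrays where the probe was not well above background; Cd4 by its brighter (3') probe is high in the 12-month PBS and 2-month ARF-DTR lungs of slide 1 and low in the 3 groups of slide 2.

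The checkpoint genes had higher averages in DT-treated than in PBS-treated ARF-DTR lungs, without passing the test. Pdcd1 had -1.03, -1.84, -1.17 and -0.43 in the DT-treated lungs, against the PBS levels of -1.41, -3.73, -2.35 and -1.56 given above. The groups overlapped, and the change was 1.15 ± 0.43 (95% interval 0.21 to 2.08, limma adjusted p = 0.0623). The value lay close to the threshold, and under several other settings it passed, among them median scaling (1.33, limma adjusted p = 0.0232) and the fits without PBS replicate 1 (1.43, 0.0337), PBS replicate 4 (1.38, 0.041) or DT replicate 2 (1.39, 0.0362). Median scaling also raised the count of all genes that were higher, as given above. Without PBS replicate 2 the change of Pdcd1 was 0.66 (limma adjusted p = 0.143). Ctla4 was well above background in all 4 DT-treated lungs, at -4.37, -5.01, -4.64 and -3.81, and in 2 of the 4 PBS lungs, and it changed by 0.76 ± 0.43 (limma adjusted p = 0.202). Icos changed by 0.07 ± 0.19 (95% interval -0.34 to 0.49) and Foxp3 by 0.10 ± 0.22 (-0.37 to 0.57).

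Among the CD3 chains, Cd3d had 1.5, 1.29, 1.74 and 1.97 in the DT-treated lungs, against 1.46, 0.91, 1.19 and 1.35 in the PBS lungs, a change of 0.40 ± 0.15 (limma adjusted p = 0.0674). Cd3g changed by 0.41 ± 0.18 (limma adjusted p = 0.0952), with DT-treated lungs at 0.96, 0.65, 1.05 and 1.29. Both passed with median scaling (0.58 and 0.59, limma adjusted p = 0.0102 and 0.0178) and without DT replicate 2 (0.51 and 0.53, limma adjusted p = 0.024 and 0.043). More of all genes were higher under median scaling too. Cd3e changed by -0.12 ± 0.11 (limma adjusted p = 0.46), and by 0.06 with median scaling. Cd8a changed by 0.10 ± 0.19 and Cd8b1 by 0.16 ± 0.19, while the dimmer Cd8a probe gave 0.46 ± 0.17 (limma adjusted p = 0.0604). B cell markers were lower in 3 of 10 and higher in 0 in this comparison, dendritic cell markers were higher in 4 of 7 and lower in 0, and lung epithelial and endothelial markers were higher in 6 of 13 and lower in 0, where 15.9% of all genes were higher and 13.5% lower. Macrophage and monocyte markers were higher in 2 of 6 and lower in 0. Of 8 natural killer markers 1 was higher and 1 lower, as were 1 and 1 of 7 innate lymphoid and gamma delta markers. Lymph node stroma markers were higher in 1 of 6 and thymocyte markers in 1 of 5, with 0 lower. Mean levels of the B cell markers were -0.14 to 0.16 in DT-treated and 0.06 to 0.73 in PBS lungs. Those of the dendritic cell markers were 0.64 to 1.05 in DT-treated and 0.36 to 0.57 in PBS lungs. The lung markers had mean levels of 5.64 to 5.74 in DT-treated and 5.42 to 5.47 in PBS lungs, which did not overlap. On the slide of the DT-treated lungs, the WT PBS lungs had 5.56 to 5.69. Between DT-treated ARF-DTR and WT PBS lungs 0 of the 13 passed in limma, against 5.51% of all genes. Their part in these values was not tested.

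WT lungs, which lack the toxin receptor, were used to see what DT does without the transgene. Here 0 of the 10 genes passed in limma, against 0.176% of all genes tested. An unadjusted p under 0.05 was found for 3 of the 10, all higher, against 5.23% of all genes in that direction. With 2 lungs a group, 6 of the 10 genes (Pdcd1, Ctla4, Icos, Foxp3, Cd3d and Cd3g) were higher in both DT lungs than in both PBS lungs, as in 18.8% of all genes. Pdcd1 had -1.58 and -1.14 in the WT DT lungs, against -3.18 and -2.57 in the WT PBS lungs, a change of 1.51 ± 0.61 (95% interval 0.19 to 2.83, limma adjusted p = 0.319). Foxp3 had -2.61 and -3.33 in the WT DT lungs, against -3.81 and -4.43 in the WT PBS lungs, a change of 1.15 ± 0.30 (limma adjusted p = 0.147). Icos had 0.18 and 0.34 in the WT DT lungs, against -0.37 and -0.36 in the WT PBS lungs, a change of 0.62 ± 0.27 (limma adjusted p = 0.358). The averages of all 3 were thus higher with DT in mice without the receptor, by amounts that did not pass. Ctla4 was well above background in 1 of 2 WT DT lungs and 0 of 2 WT PBS lungs, at -4.42 and -4.24 in WT DT lungs and -5.44 and -5.41 in WT PBS lungs (limma adjusted p = 0.49), and no fold is given. The change of the other 6 genes lay between -0.13 (Cd8b1) and 0.36 (Cd3g).

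Whether DT acted differently in the 2 genotypes was tested as an interaction in limma, in which 0 of the 10 genes passed, against 2.1% of all genes. An unadjusted p under 0.05 was found for 2 of the 10, both lower, against 8.72% of all genes in that direction. Cd4 came nearest, at -0.88 ± 0.22 (ARF-DTR minus WT, limma adjusted p = 0.0607). It passed with the intensity trend (0.0408) and with the filter to probes well above background on all 16 arrays (0.0497), and the DT and PBS lungs of ARF-DTR mice lay on different slides. Foxp3 differed by -1.05 ± 0.37 (limma adjusted p = 0.139). For Pdcd1 the difference was -0.37 ± 0.75, with a 95% interval of -1.98 to 1.25.

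**Figure D4:**
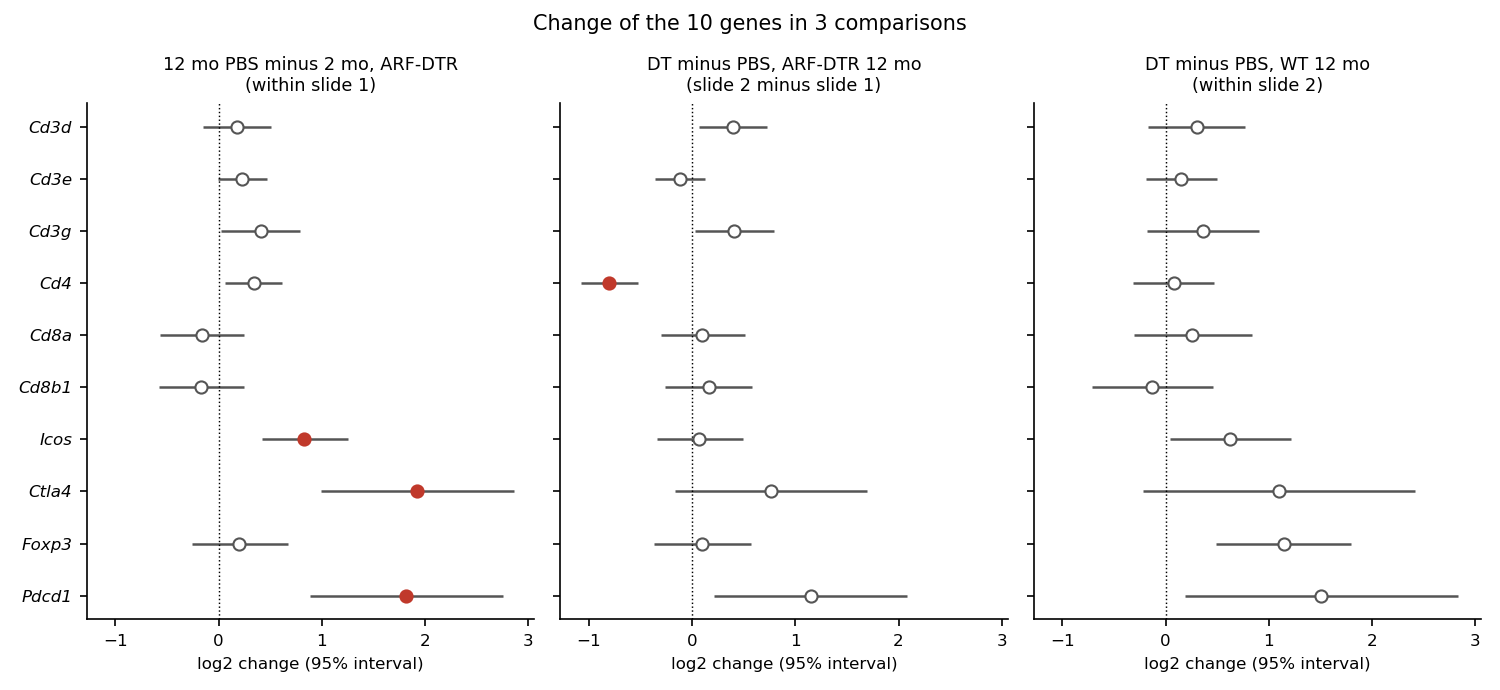
Log2 change of the 10 genes with 95% intervals (horizontal axis) for 12-month PBS minus 2-month ARF-DTR lungs, DT minus PBS in ARF-DTR lungs and DT minus PBS in WT lungs. Filled red points passed limma's test at an adjusted p under 0.05: Pdcd1, Ctla4 and Icos with age, which runs with injection, and Cd4 with DT in ARF-DTR lungs; the points of Ctla4 are fitted values against dim arrays.

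DT-treated 12-month ARF-DTR lungs were also set against 2-month ARF-DTR lungs. The comparison crosses slides, so age and DT cannot be told apart from slide in it. Of the 10 genes 5 were higher and 1 lower, where 14.8% of all genes were higher and 16% lower (4876 and 2555 genes with median scaling, against 3787 and 4081). Pdcd1 changed by 2.97 ± 0.43, or 7.84-fold (limma adjusted p = 0.000337). Ctla4 was at least 2.54-fold higher with dim arrays raised as above, and the fit to its unraised values gave a limma adjusted p of 0.000634. Icos changed by 0.91 ± 0.19 (limma adjusted p = 0.00354), Cd3g by 0.82 ± 0.18 (0.0038) and Cd3d by 0.58 ± 0.15 (0.0124). In these 5 genes all 4 DT-treated lungs lay above all 4 young ones, as in 14.6% of all genes. The WT PBS lungs of slide 2 also lay above the young lungs in Cd3d (1.55 and 1.54) and Cd3g (0.68 and 0.90). Cd4 changed by -0.46 ± 0.13 (limma adjusted p = 0.0156, and 0.0519 without 2-month replicate 2), in the direction of the slide split above. Cd3e (0.11 ± 0.11), Foxp3 (0.30 ± 0.22), Cd8a (-0.06 ± 0.19) and Cd8b1 (-0.01 ± 0.19) did not pass, and the 2 CD8 chains turned positive, at 0.03 and 0.08, with median scaling. The PBS lungs are not part of this comparison, but the 2-month lungs are shared with the age comparison.

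Genotype was compared at 12 months. With PBS, ARF-DTR lungs differed from WT lungs in Cd4 alone, described above (1 of 10 higher, where 10.9% of all genes were higher and 12.7% lower, 1933 and 4334 genes with median scaling, against 2794 and 3254). With DT, 0 of the 10 genes passed in limma, against 0.888% of all genes. A single one was lower at an unadjusted p under 0.05, against 6.3% of all genes, which was Foxp3, at -0.71 ± 0.26 (limma adjusted p = 0.213), with ARF-DTR lungs at -3.40, -3.96, -3.74 and -3.61 and WT lungs at -2.61 and -3.33. DT-treated ARF-DTR lungs set against WT PBS lungs on the same slide gave 0 of 10 in limma, against 5.51% of all genes. A single one was higher at an unadjusted p under 0.05, against 10.5% of all genes, which was Pdcd1, at 1.76 ± 0.53 (limma adjusted p = 0.0707). In order of its mean level, Pdcd1 was at -1.12 ± 0.58 in DT-treated ARF-DTR lungs (SD, n = 4), -1.36 ± 0.31 in WT DT lungs (n = 2), -2.26 ± 1.06 in PBS-treated ARF-DTR lungs (n = 4), -2.87 ± 0.43 in WT PBS lungs (n = 2) and -4.09 ± 0.24 in 2-month ARF-DTR lungs (n = 4). Of the neighbours in that order, the first pair differed by 0.24 ± 0.53 (limma adjusted p = 0.879) and PBS-treated ARF-DTR and WT lungs by 0.61 ± 0.53 (0.428), both within the spread.

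Of the 32 genes listed for signalling next to the receptor, all were measured. Of these 4 were higher and 0 lower in 12-month PBS than in 2-month ARF-DTR lungs, with a median change of 0.14, where 2.73% of all genes were higher and 3.41% lower. They were Lat, the adaptor that Zap70 phosphorylates (0.88 ± 0.12, limma adjusted p = 0.000858), Ptpn22, a phosphatase that restrains receptor signalling (0.69 ± 0.14, 0.0138), the adaptor Sit1 (0.68 ± 0.13, 0.00869) and the exchange factor Vav1 (0.25 ± 0.07, 0.0486). The kinase Zap70 had 0.41 ± 0.12 (limma adjusted p = 0.0614), Cd28, the main costimulatory receptor, 0.37 ± 0.16 (0.209), the kinase Lck 0.11 ± 0.13 (0.696) and Cd247, the zeta chain, -0.18 ± 0.22 (0.705). With DT in ARF-DTR lungs 5 were higher and 0 lower, with a median change of 0.08, where 15.9% of all genes were higher and 13.5% lower, so the share that was higher is close to that of all genes. Among them were the adaptor Sla (0.50 ± 0.10, limma adjusted p = 0.00255), the phosphatase Ptprc, or CD45 (0.35 ± 0.10, 0.0163), the receptor Cd27 (0.33 ± 0.12, 0.0488) and Bcl10, an adaptor on the way to NF-kappaB (0.21 ± 0.06, 0.0238). With DT in WT lungs 0 passed in limma, and 8 of the 32 had an unadjusted p under 0.05, all higher, against 5.23% of all genes.

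Of 22 other costimulatory and checkpoint genes 18 were measured. With age 2 were higher and 0 lower, where 2.73% of all genes were higher and 3.41% lower. They were Tox, a transcription factor of chronically stimulated T cells (0.90 ± 0.19, limma adjusted p = 0.0152), and Pdcd1lg2, a ligand of PD-1 (0.71 ± 0.17, 0.0254). With DT in ARF-DTR lungs Cd86, a ligand of CD28 and CTLA-4, was higher (0.61 ± 0.14, limma adjusted p = 0.00744), as was the inhibitory receptor Havcr2 (0.51 ± 0.15, 0.0246), and the receptor Cd244a was lower (-0.68 ± 0.15, 0.00576). These 2 of 18 higher and 1 of 18 lower lie below the 15.9% and 13.5% of all genes. Of 26 genes of T cell transcription and state 25 were measured, of which 6 were higher and 1 lower with age, against the same 2.73% and 3.41%. Lower was Lef1, a transcription factor of naive T cells (-0.86 ± 0.16, limma adjusted p = 0.00762). Among the higher genes were the chemokine receptors Cxcr3, Cxcr6 and Cxcr5, the interleukin-2 receptor chain Il2ra (0.64 ± 0.14, limma adjusted p = 0.016), and the transcription factor Ikzf2 (0.39 ± 0.09, 0.0237). With DT in ARF-DTR lungs 2 were higher, among them the adhesion molecule Cd44 (0.55 ± 0.10, limma adjusted p = 0.00203). The 2 of 25 higher and 3 of 25 lower lie below the 15.9% and 13.5% of all genes. The 3 lower genes were Cxcr5 (-0.45 ± 0.15, limma adjusted p = 0.0396), Klf2 (-0.44 ± 0.15, 0.04) and its target S1pr1, the exit receptor of lymphocytes (-0.37 ± 0.12, 0.0314). Across slides, Cd244a and Klf2 were also higher in PBS-treated ARF-DTR than in WT PBS lungs (0.90 and 0.66, limma adjusted p = 0.00535 and 0.0212). Between DT-treated ARF-DTR and WT DT lungs, within slide 2, neither passed (0.29 and -0.21, limma adjusted p = 0.504 and 0.642). Cd86, Havcr2, Cd44, Cxcr5 and S1pr1 passed in neither comparison. In all of these DT and slide cannot be told apart. With DT in WT lungs 0 genes of either list passed in limma, while unadjusted p-values under 0.05 were found for 4 of the 18, all higher, and for 4 of the 25, 3 higher and 1 lower, against 5.23% of all genes higher and 7.5% lower. Many of these genes are also used by other leukocytes or by endothelium.

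From array to array within groups, the 10 genes did not move as a block. After removal of the group means, over the 16 arrays, Cd3d and Cd3g had a Pearson r of 0.94, Cd3d and Icos 0.92, Cd3g and Icos 0.89, Cd3g and Ctla4 0.86, and Cd3g and Pdcd1 0.83. Cd3e, the remaining CD3 chain, had r of 0.56 with Cd3g and 0.65 with Cd3d, and 0.77 with Cd4. Cd8a and Cd8b1 had r of 0.76 with each other and between -0.14 and 0.06 with Pdcd1, Ctla4 and Icos. The r of Cd3e and Foxp3 depended on the slide. With group means left in, Cd3d and Cd3e had r of 0.83 on slide 1 and 0.58 on slide 2, and Cd3d and Foxp3 0.95 and 0.36. ARF-DTR PBS replicate 2 lay far below its group mean in Pdcd1 (-1.47) and Ctla4 (-1.29), so the r values rest partly on that array. The pairs of one array share its scaling and its tissue piece, and these values are a description. Ctla4 was well above background on 7 of the 16 arrays, so its r values rest partly on dim signal.

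**Figure D5:**
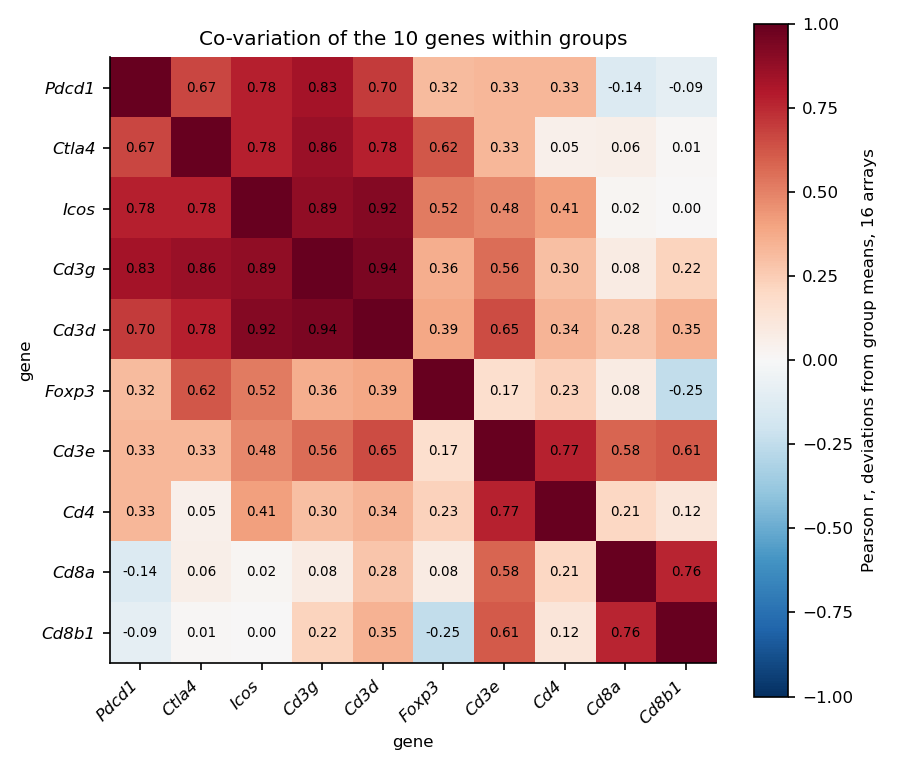
Pearson r between the 10 genes over 16 arrays, from deviations from the group means, with genes on both axes and colour for r. Pdcd1, Ctla4, Icos, Cd3g and Cd3d form a block with r of 0.67 to 0.94, apart from Cd8a and Cd8b1, which share an r of 0.76. Ctla4 was well above background on 7 of the 16 arrays.

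The genes whose levels over the 16 arrays were most like these, by Pearson r among all genes tested, were found for 3 averages. The average with Ctla4 includes its dim signal, which was well above background on 7 arrays only. For Icos, Ctla4 and Pdcd1 they were Derl3 (r = 0.973), Mzb1 (0.972) and Lax1 (0.97), with r of 0.881, 0.885 and 0.914 within groups, and an unnamed probe (0.969). Derl3 and Mzb1 act in the endoplasmic reticulum of secretory cells and plasma cells, and Lax1 is an adaptor of lymphocytes. For the average of the CD3 chains they were Lcp2, the adaptor SLP-76 (r = 0.946), Snx20 (0.942), Cst7 (0.94) and an unnamed transcript (0.937), with r of 0.873 to 0.942 within groups. For the average of Cd8a and Cd8b1 the highest values were lower, with Ube2l6 and Ifit3b at 0.766 each, and 2 unnamed transcripts at 0.739.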

How the data were processed

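Total RNA of lung was measured on 16 Agilent arrays. Per the file headers, the deposited files hold intensity values in 1 channel, read with Agilent Feature Extraction, which the submitters' processing notes give as version 10.10.1.1, on a probe design placed on mm9. The processed intensity used here was background-subtracted by that software and not scaled between arrays. The series-wide values deposited by the authors are log2 values that matched the log2 signal minus the array's 75th percentile, and were used as an alternative.

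Control spots and outlier spots (105 to 171 per array) were left out and spots of a probe averaged, on 55681 probes. Of these, 37036 passed a filter that asked for signal well above background on 4 or more arrays. They gave 25573 genes, each represented by its brightest probe. Names came from RefSeq accessions where matched (27656 probes), symbols (3722) or the file (24303).

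Groups came from titles, source names and treatments, which were the same as each other; the free descriptions of 3 WT samples name the opposite treatment or leave DT out. Whether each sample is its own mouse is not stated in the labels, and the p-values describe the spread among samples, part of which may be technical. limma 3.58.1 (version 1.17.8 of data.table, jsonlite 2.0.0, R 4.3.3) fitted 1 mean per group to all 16 arrays, two-sided, and was tested on simulated data. Precision is limited by how many arrays there were, most in WT.

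The 10 genes and all lists were chosen with earlier results of these data known. Listed genes were named where they passed with age or with DT in ARF-DTR lungs, up to 6 per list and comparison by size of change, and Cd247, Cd28, Lck and Zap70 in any case; some named by this rule are not reported here. For likeness the 4 highest r were taken. Alternatives were other scalings, background corrections, filters, probe rules, variance models, sample sets and a replicate block, and leaving out each array.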

Additional observations from a re-analysis of the deposited data

Results flagged for a closer look

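Dixon's test at the 95% level was applied to the 10 genes in each of the 3 groups of 4 lungs, 30 checks, of which chance flags about 1 in 20. It picked out 1, Cd3e in the 2-month ARF-DTR lungs, where replicate 2 had a log2 level of 1.57 and the other 3 lay between 1.18 and 1.24 (gap over range 0.849). Without that array the change of Cd3e between 12-month PBS and 2-month lungs was the highest of its leave-one-out values, 0.32, against 0.23 with all arrays.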

How the results depend on the processing

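Counts of the 10 genes that passed depended on the setting. For 12-month PBS against 2-month ARF-DTR lungs the count of 3 became 1 after normexp background correction with quantile normalization, in the fit to the groups of the contrast alone and on slide 1 alone, and 0 to 3 when single arrays were left out. For DT against PBS in ARF-DTR lungs the count of 1 became 4 (3 higher, 1 lower) with median scaling, 3 (2 higher, 1 lower) after normexp, 2 (1 higher, 1 lower) with the filter to all 16 arrays, with the intensity trend and with the replicate block, and 1 to 4 without single arrays. For the interaction 1 gene, Cd4, was lower with the filter to all 16 arrays and with the intensity trend, against 0, and for DT-treated ARF-DTR against WT PBS lungs 1, Pdcd1, was higher after normexp. With median scaling more of all genes tested were also higher with DT in ARF-DTR lungs, as given above. Shares of all genes under the other settings are not set beside these counts. The cause of the shifts in these counts was not tested. The filter to all 16 arrays removed Ctla4.

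Changes of sign were found in values that did not pass. With median scaling Cd3e with DT in ARF-DTR lungs turned to 0.06, and for DT-treated against 2-month lungs Cd8a turned to 0.03 and Cd8b1 to 0.08. In that comparison quantile normalization gave 0.01 for Cd8a and 0.04 for Cd8b1, normexp 0.02 for Cd8b1, and the mean of probes 0.08 for Cd8a. Without single arrays Cd8b1 lay between -0.17 and 0.07 there. With DT in ARF-DTR lungs, single arrays left out gave -0.11 to 0.24 for Icos and -0.02 to 0.19 for Foxp3. With DT in WT lungs they gave -0.05 to 0.20 for Cd4, -0.21 to 0.74 for Cd8a, -0.56 to 0.31 for Cd8b1 and -0.06 to 0.37 for Cd3e, where a lone lung was assumed to vary like the other groups.

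The labels do not say that replicate numbers of the titles pair samples. Same-numbered deviations correlated between -0.2 and 0.08 for age and between -0.06 and 0.33 for DT in ARF-DTR lungs, so not every pair was above 0.1 and no pairing was used. Of 4 arrays, 0 for age and 3 for DT correlated best with their own number, which is a hint of pairing in the DT comparison from the data only. In the ARF-DTR groups the replicate number is also the array's column on its slide, so pairing and column cannot be told apart. Slide as a random block could not be estimated, as no group spans both slides. Signal over background limits Ctla4, which was dim in young lungs.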
